A study of Mus musculus with 6 samples.

Results

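The Slc25 genes encode the mitochondrial carrier family, and their kidney transcripts were compared between wild-type mice and mice labelled as knockout for Far2, which encodes fatty acyl-CoA reductase 2. Members were taken by name: every gene of the deposited table whose symbol begins with Slc25a followed by a number. The rule found 47 carriers among 23396 genes, of which 42 passed the filter on low counts and 5 (Slc25a2, Slc25a31, Slc25a41, Slc25a43 and Slc25a54) did not. The tissue was flash-frozen right kidney of male mice aged 6 months. The knockout group was 3 mice homozygous for the Far2 knockout of strain C57BL/6N-Far2tm2a(KOMP)Wtsi/2J, and the control group was 3 C57BL/6N wild-type mice. The labels name no driver that limits the knockout to a tissue. Whether the wild-type mice were littermates is not given in the sources used here. The libraries of each group are numbered 0, 1 and 2 in the deposited table, and these numbers match no mouse label.

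Carriers of this family sit mostly in the inner mitochondrial membrane, where each moves a small set of metabolites, nucleotides, cofactors or ions between cytosol and matrix. They are made in the cytosol and inserted by the TIM22 import machinery. The proximal tubule of the kidney is rich in mitochondria and burns fatty acids, lactate and glutamine, so it depends on carriers for ADP and ATP, phosphate, acylcarnitine, malate and glutamate.

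The GC box, which is bound by Sp-type factors, was the most frequent of the motifs searched in the carrier promoters. RefSeq promoter windows (250 bases before to 50 bases after the start, GRCm38.p6) were found for 36 of the 47 carriers, 46 windows in all. The GC box (GGGCGG) was present in 38 windows (82.6%), against 35.7% of all 32851 windows and 59.6% of the windows of tested genes. The CCAAT box (CCAAT) was present in 47.8% of carrier windows, against 37.4% of all windows and 37.2% of those of tested genes. The TATA box (TATAAA) was in 4.3%, against 13.6% and 7.56%. The E-box (CACGTG) was in 17.4%, against 7.15% and 9.55%. The CRE (TGACGTCA) was in 4.3%, against 1.79% and 2.8%, and the NRF1 motif (GCGCA and GCGC with any base between) in 4.3%, against 4.6% and 8.9%. The ERR site (CAAGGTCA) was in 0 windows, against 1.56% and 1.11%. Of the other motifs searched, the SRE (TCACNCCAC) was in 2.2% of carrier windows (1.24% of all and 1.23% of tested-gene windows) and the ETS motif (CCGGAAGT) in 2.2% (3.89% and 7.1%). DR1 (AGGTCA repeated after any base), HNF4 (CAAAGTCCA), HNF1 (GTTAAT and ATTAAC with any base between) and GRE (GNACA and TGTNC with NNN between) were in 0 carrier windows and in at most 0.475% of all. All 13 motifs were searched on both strands, a match describes letters only, and a gene can have more than 1 window. Below are the windows of 4 carriers on which the results turn. Slc25a30 (chr14:75786988-75787287, minus strand) had the smallest p of the family, Slc25a1 (chr16:17928170-17928469, minus strand) the next smallest, Slc25a25 (chr2:32424017-32424316, minus strand, 1 of 3 windows) the widest spread among abundant carriers, and Slc25a3 (chr10:91123918-91124217, minus strand) the second highest level. Each reads 5′ to 3′ along the gene, and capitals mark matches to the GC box, CCAAT box, E-box, CRE or NRF1 motif on either strand.
Slc25a30: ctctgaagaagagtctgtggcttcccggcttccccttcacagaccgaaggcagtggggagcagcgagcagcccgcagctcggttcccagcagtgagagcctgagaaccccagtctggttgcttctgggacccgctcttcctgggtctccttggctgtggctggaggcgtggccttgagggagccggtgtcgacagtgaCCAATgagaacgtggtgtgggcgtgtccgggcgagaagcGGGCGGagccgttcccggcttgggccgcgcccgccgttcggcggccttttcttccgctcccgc
Slc25a1: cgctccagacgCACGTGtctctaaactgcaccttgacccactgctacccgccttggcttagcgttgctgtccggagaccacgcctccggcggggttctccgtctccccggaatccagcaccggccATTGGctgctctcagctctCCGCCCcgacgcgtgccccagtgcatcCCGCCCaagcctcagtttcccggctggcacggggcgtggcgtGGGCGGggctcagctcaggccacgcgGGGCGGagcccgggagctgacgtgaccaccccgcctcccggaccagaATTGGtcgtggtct
Slc25a25: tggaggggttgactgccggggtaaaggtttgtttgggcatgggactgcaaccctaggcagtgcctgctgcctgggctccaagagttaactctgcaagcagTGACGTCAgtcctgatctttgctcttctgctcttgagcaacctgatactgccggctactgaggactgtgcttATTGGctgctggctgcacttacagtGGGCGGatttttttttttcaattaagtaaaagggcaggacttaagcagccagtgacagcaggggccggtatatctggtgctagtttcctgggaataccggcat
Slc25a3: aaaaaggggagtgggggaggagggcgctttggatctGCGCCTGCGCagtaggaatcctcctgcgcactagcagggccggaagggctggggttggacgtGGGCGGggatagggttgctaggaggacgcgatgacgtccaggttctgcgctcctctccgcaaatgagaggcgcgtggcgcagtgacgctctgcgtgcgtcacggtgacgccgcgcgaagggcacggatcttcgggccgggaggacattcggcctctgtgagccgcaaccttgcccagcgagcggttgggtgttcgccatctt
The Slc25a30 window held 1 CCAAT box and 1 GC box, and the Slc25a1 window 1 E-box, 2 CCAAT boxes and 4 GC boxes. The Slc25a25 window was one of only 2 carrier windows with a CRE, the other being from Slc25a36. Slc25a3 and Slc25a31 were the carriers with an NRF1 match, which in Slc25a3 reads on the reverse strand. No match printed here overlaps another.

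The 6 libraries held from 15261362 to 20631158 fragments assigned to genes, and 14354 genes were tested. Far2 transcripts were scarce in both groups, at 1.98, 1.90 and 1.43 CPM (counts scaled to TMM-adjusted library size) in wild type and 1.59, 1.26 and 1.67 in knockout, with overlap, so these values did not check the labels. Kidney markers were abundant in every library. In FPKM, fragments scaled to transcript length and library size, the proximal tubule transporter Slc34a1 ranged from 1199.5 to 1336 and the loop marker Umod from 919.6 to 1128, while 5 skeletal muscle genes summed to at most 0.908 and Myh4 was listed at 0. Wild-type library 0 stood apart. Its 5 tubular injury genes summed to 56.0 FPKM, against 7.92 to 9.30 in the other 5 libraries, and its macrophage genes (6 of 7 in the table) to 138 FPKM, against 42.6 to 63.2. Fat genes summed to 20.5 FPKM in knockout library 2 and to at most 4.17 elsewhere. The blood gene Hba-a1 was at 0.0018 FPKM in wild-type library 1 and from 98.5 to 153 in the other 5. Alas2, also a blood gene, was at 10.7 FPKM in wild-type library 1 and from 7.28 to 12.1 in the others. The 8 proximal tubule markers had summed FPKM of 34255 to 45373 in wild type and 44764 to 53565 in knockout, mostly from Kap, with a higher knockout mean in 7 of 8. Knockout means in FPKM were also higher for 3 of 4 thick ascending limb genes (2 of 4 by the fit on counts) and 2 of 3 distal convoluted tubule genes. The same held for 4 of 6 collecting duct and 3 of 4 endothelial genes. Markers of some other cell types lay the other way. The knockout mean was higher in 0 of 4 podocyte, 0 of 6 macrophage, 0 of 5 fibroblast and 0 of 4 smooth muscle genes. Their summed FPKM was 45.1 to 59.2 in wild type and 40.9 to 50.5 in knockout for podocytes, 46.4 to 80.2 and 43.2 to 47.2 for fibroblasts, and 36.3 to 39.8 and 33.1 to 37.3 for smooth muscle. Wild-type library 0 held the highest macrophage and fibroblast sums. In wild-type libraries 1 and 2 the macrophage sums were 50.3 and 48.1 FPKM, within the knockout range of 42.6 to 63.2. The fibroblast sums of these 2 libraries were 46.4 and 48.8 FPKM. The part of these cell types in the carrier values was not tested. In bulk tissue, fewer cells of a type and less RNA per cell cannot be told apart.

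The family reached from abundant kidney transcripts to genes with no fragment at all. Mean FPKM, which is per length, was at least 100 in 4 carriers, at least 10 in 26 and at least 1 in 38, and under 1 in 9. The 4 highest together made up 64.8% to 65.6% of the summed FPKM of all 47 carriers. Slc25a5, the ADP/ATP exchanger of most tissues, was first with a wild-type mean of 743 ± 24.7 FPKM and a knockout mean of 822 ± 62.1 (SD, n = 3). Slc25a3, which brings in phosphate for ATP synthesis, followed with 411 ± 19.3 and 415 ± 17.8. Slc25a39, which imports glutathione, had 218 ± 8.37 and 237 ± 9.31, and Slc25a4, the ADP/ATP exchanger prominent in heart and muscle, 183 ± 11.8 and 196 ± 15.7. The oxoglutarate/malate carrier Slc25a11 (80.6 ± 3.36 FPKM in wild type) and the dicarboxylate carrier Slc25a10 (69.6 ± 4.72) came next. Among the wild-type libraries these first 6 carriers did not overlap with the next in order. From the 7th place on most neighbours overlapped: Slc25a15, Slc25a17, Slc25a13, Slc25a51 and Slc25a36 lay between 50.4 and 60.4 FPKM in mean.

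**Figure D1:**
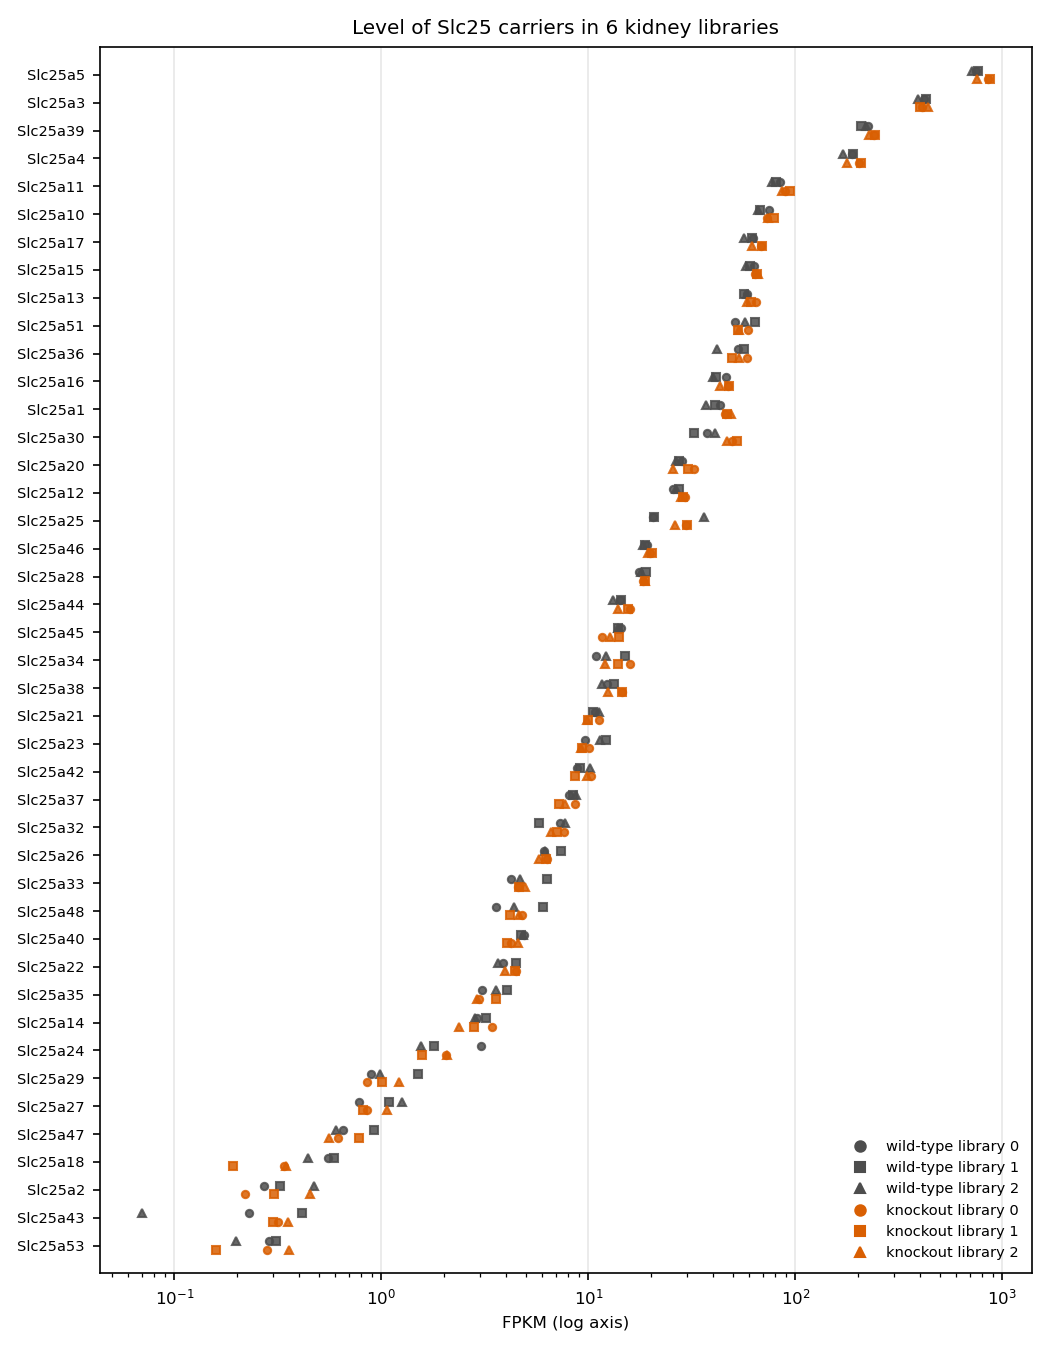
FPKM of the carriers shown (log axis) in the 3 wild-type libraries (grey) and 3 knockout libraries (orange), ordered by mean level. Slc25a31, Slc25a41 and Slc25a54, with 1, 3 and 0 fragments, are not drawn; Slc25a5 sits near 783 FPKM in mean, and for most carriers the groups overlap.

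No carrier passed the test of knockout against wild type. By the quasi-likelihood test of edgeR, adjusted by Benjamini-Hochberg over all 14354 genes with a threshold of 0.05, 0 of 42 carriers and 0% of all genes passed, and the smallest adjusted p of a carrier was 0.599. DESeq2 also called 0 carriers (0.0906% of all genes). Unadjusted p was under 0.05 in 6 carriers (14.3%), against 8.31% of all genes. Of these, Slc25a30, Slc25a1, Slc25a17 and Slc25a11 were higher in knockout (background 3.17%) and Slc25a18 and Slc25a23 lower (background 5.14%). DESeq2 gave an unadjusted p under 0.05 for 3 carriers, against 5.59% of all genes. The libraries of the groups did not overlap in 9 carriers (21.4%), against 14.1% of all genes. In 7 of them (Slc25a1, Slc25a11, Slc25a12, Slc25a15, Slc25a17, Slc25a30 and Slc25a46) all knockout libraries were the higher (background 7.12%), and in Slc25a18 and Slc25a45 the lower (background 6.96%).

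The knockout mean was the higher in 25 of 42 carriers (59.5%), against 48.3% of all tested genes. The median log2 fold change, taken as knockout over wild type, was 0.058 over the carriers and −0.0066 over all genes. Without wild-type library 0 these medians were 0.040 and 0.0005. For 32 carriers the 95% confidence interval of the log2 fold change lay within ±0.5. Summed over the family, FPKM was 2412, 2428 and 2304 in the wild-type libraries and 2608, 2618 and 2448 in the knockout libraries. Every knockout sum was above every wild-type sum, with the closest at 2448 and 2428, and the abundant Slc25a5 weighs most in it. As a share of all fragments the family took 0.413%, 0.428% and 0.408% in wild type and 0.439%, 0.447% and 0.423% in knockout, and these ranges overlapped.

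**Figure D2:**
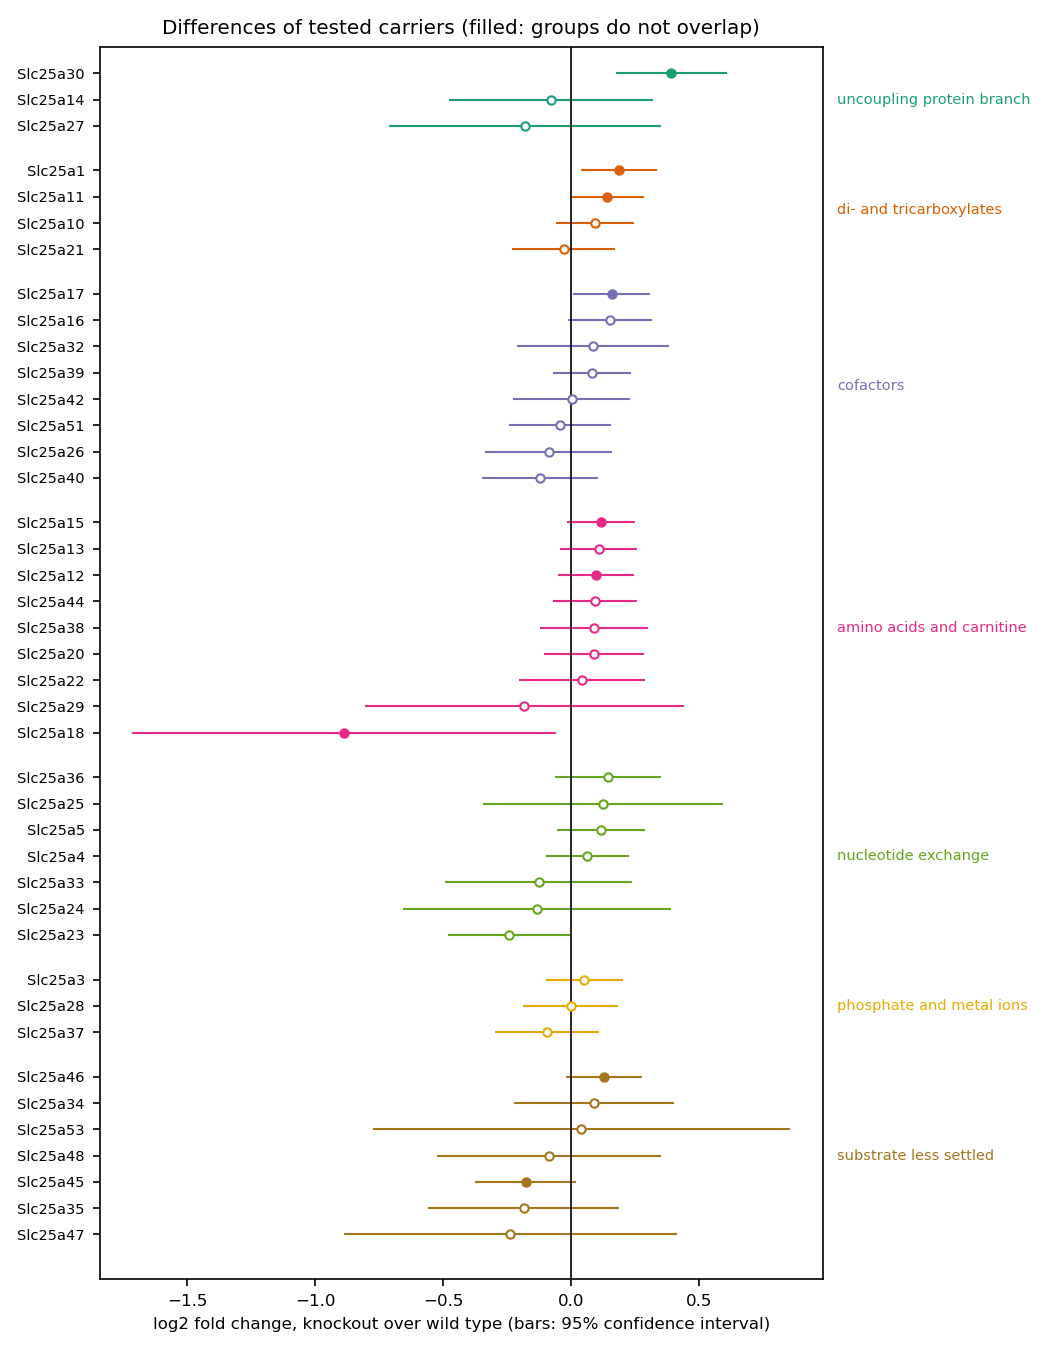
Log2 fold change (knockout over wild type) with its 95% confidence interval for tested carriers, grouped by what they carry; filled points mark the 9 carriers whose groups do not overlap. Slc25a30 lies farthest to the right at 0.39 and Slc25a18 farthest to the left at −0.89, with a wide interval.

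After the sparse Slc25a18, the largest log2 fold change of the 42 was in the uncoupling protein branch, carriers that resemble the brown fat uncoupling protein Ucp1. Slc25a30, the kidney mitochondrial carrier KMCP1, was measured at 60.9, 55.5 and 72.3 CPM in wild type and 81.4, 87.3 and 78.5 CPM in knockout. All knockout libraries were above all wild-type libraries, and wild-type library 2 was nearest to them. The means were 62.9 ± 8.57 and 82.4 ± 4.48 CPM (SD, n = 3). Its log2 fold change was 0.39 ± 0.097 (SE, 95% interval 0.18 to 0.61), which did not pass edgeR's test (adjusted p = 0.599), and its unadjusted p ranked 42nd among all genes. Across the 14 alternatives the log2 fold change ran from 0.31 to 0.50 and the adjusted p from 0.191 to 0.998, and without wild-type library 0 it was 0.37. The authors' deposited table gives Slc25a30 a log2 fold change of 0.43, a p of 0.0004 and a q of 0.0559. Of 41 carriers tested by the authors, only this 1 had a p under 0.05, and 0 had a q under 0.05. Slc25a30 lies on chromosome 14 from 75760117 to 75787037 (minus strand, 10 exons, GENCODE on GRCm38), and no exon of another annotated gene overlaps its exons. The other members of the branch were low and overlapped between groups. Slc25a14 (UCP5) had 2.98 ± 0.19 FPKM in wild type and 2.86 ± 0.52 in knockout, and Slc25a27 (UCP4) 1.04 ± 0.24 and 0.912 ± 0.14.

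Among the carriers of di- and tricarboxylates, 3 of 4 had a higher knockout mean (48.3% of all genes) and 2 did not overlap between groups, both higher in knockout (7.12% of all genes). Slc25a1, which exports citrate for fatty acid and sterol synthesis, was at 72.5, 72.2 and 67.2 CPM in wild type and 76.6, 80.7 and 83.9 in knockout. Every knockout library was above every wild-type library, by a gap smaller than the range from lowest to highest library within either group. The log2 fold change was 0.19 ± 0.066 (SE), and edgeR's adjusted p was 0.599. Slc25a11, the oxoglutarate/malate exchanger of the malate-aspartate shuttle, was at 149.7, 149.1 and 148.7 CPM in wild type and 158.7, 175 and 160.3 in knockout. The wild-type libraries lay within 1 CPM of each other, and knockout library 1 was the highest. Its log2 fold change was 0.14 ± 0.063 (SE; edgeR's adjusted p = 0.599). Slc25a10, which exchanges malate or succinate for phosphate, had a log2 fold change of 0.095 ± 0.068, and Slc25a21, which carries oxoadipate from lysine and tryptophan breakdown, one of −0.029 ± 0.089. Both overlapped between groups.

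Of 9 tested carriers of amino acids and carnitine, 7 had a higher knockout mean (48.3% of all genes), with a median log2 fold change of 0.090. The groups did not overlap in 3 (14.1% of all genes), of which Slc25a12 and Slc25a15 were higher and Slc25a18 lower in knockout. Slc25a15, the ornithine/citrulline exchanger of the urea cycle, was at 199, 194 and 197 CPM in wild type and 207, 219 and 214 in knockout. The knockout libraries were all higher, and its log2 fold change was 0.12 ± 0.060 (SE; edgeR's adjusted p = 0.603). Slc25a12 (aralar), an aspartate/glutamate carrier, was at 70.4, 78.5 and 78.1 CPM in wild type and 81.6, 82.0 and 79.1 in knockout. Wild-type library 0 was the low one: without it the log2 fold change was 0.048, and with it 0.097 ± 0.067. Its partner Slc25a13 (citrin) was about as much higher in mean, at 0.11 ± 0.067 on the log2 scale, but overlapped. The carnitine/acylcarnitine carrier Slc25a20, which admits fatty acids for oxidation, was tight in wild type (52.3, 52.5 and 52.2 CPM) and loose in knockout (60.5, 58.2 and 48.6), where library 2 was the lowest of all 6. The glycine carrier Slc25a38 and the branched-chain amino acid carrier Slc25a44 had log2 fold changes of 0.090 and 0.094, both with overlap.

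Slc25a18, a glutamate carrier known chiefly from brain, had the largest difference of the family but few fragments. Wild-type libraries gave 15, 18 and 10 fragments, knockout libraries 8, 4 and 9. The 3 knockout libraries were all lower, though 9 and 10 fragments stand next to each other. The log2 fold change was −0.89 ± 0.37 (SE, 95% interval −1.71 to −0.06; edgeR's adjusted p = 0.599), and across the alternatives it ran from −1.04 to −0.24. The exons of Slc25a18 overlap those of Atp6v1e1 on the opposite strand, and the strand setting of the counts is not given in the sources used here. Slc25a22, the related and more widespread glutamate carrier, was at 4.0 ± 0.43 FPKM in wild type and 4.27 ± 0.28 in knockout. Slc25a29, which carries basic amino acids, was lower in mean (log2 fold change −0.18 ± 0.28) with overlap. Slc25a2, a second ornithine carrier gene with 1 exon, had 48 fragments in all and was not tested.

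The 7 tested nucleotide carriers were split, with 4 higher and 3 lower in knockout mean, and none separated the groups. Slc25a5 was at 785, 838 and 813 CPM in wild type and 899, 926 and 817 in knockout. Knockout library 2 fell among the wild-type values, and the log2 fold change was 0.12 ± 0.077 (SE; edgeR's adjusted p = 0.664). Slc25a4 had a log2 fold change of 0.064 ± 0.072. Of these 7, the calcium-switched ATP-Mg/phosphate carriers Slc25a25 and Slc25a24 varied most within groups, with SDs of 0.376 and 0.369 on the log2 scale. Slc25a25 was at 73.8, 78.9 and 142 CPM in wild type and 108, 114 and 99.4 in knockout. Wild-type library 2 was the highest and the other wild-type libraries the lowest. The log2 fold change was 0.12 ± 0.21 with all libraries, 0.49 without wild-type library 2, and −0.045 without wild-type library 0. Slc25a23 went the other way, at 40.4, 52.9 and 52.2 CPM in wild type and 42.8, 40.3 and 39.9 in knockout. Wild-type library 0 lay with the knockout libraries, and the log2 fold change of −0.24 ± 0.11 (SE; edgeR's adjusted p = 0.599) was −0.36 without it. Slc25a24 was at 8.39 CPM in wild-type library 0 and between 4.54 and 5.88 CPM in the other 5. The pyrimidine nucleotide carriers Slc25a36 and Slc25a33 had log2 fold changes of 0.15 ± 0.093 and −0.13 ± 0.16. Slc25a31, an ADP/ATP carrier of testis, had 1 fragment in 6 libraries and Slc25a41 had 3, all in wild type. Slc25a54 had 0 fragments in every library, which allows a level of up to 0.0279 CPM over all libraries (3 counts, unscaled totals; counting error only).

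Carriers of phosphate and metal ions lay close between groups. Slc25a3 was at 504, 518 and 501 CPM in wild type and 505, 525 and 549 in knockout. The groups were interleaved, and the log2 fold change was 0.053 ± 0.068 (SE; edgeR's adjusted p = 0.825). The iron importers of heme synthesis and iron-sulfur clusters were also close: mitoferrin-2 (Slc25a28) had a log2 fold change of −0.0014 ± 0.083 and mitoferrin-1 (Slc25a37), the erythroid form, −0.093 ± 0.091. The sign for Slc25a28 changed under RLE scaling, to 0.0032. Slc25a37 has 2 near-identical copies in other annotated genes, so its fragments may be divided.

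Among the 9 cofactor carriers 6 had a higher knockout mean, with a median log2 fold change of 0.082. Slc25a17, which sits in the peroxisomal membrane and carries coenzyme A, FAD and NAD, was at 87.9, 87.3 and 84.4 CPM in wild type and 98.4, 102 and 89.9 in knockout. All knockout libraries were higher, with library 2 the closest to wild type. Its log2 fold change was 0.16 ± 0.067 (SE; edgeR's adjusted p = 0.599). Slc25a16, linked to coenzyme A, had a log2 fold change of 0.15 ± 0.074, with overlap. Slc25a39 was at 382, 380.1 and 406 CPM in wild type and 404, 432 and 401 in knockout, interleaved across the groups. Slc25a51, which imports NAD, was lowest in wild-type library 0 (195 CPM) and highest in wild-type library 1 (246 CPM), with the knockout libraries between (211 to 228 CPM). Its log2 fold change of −0.043 was 0.034 without wild-type library 1. The coenzyme A carrier Slc25a42, the folate and FAD carrier Slc25a32 and the S-adenosylmethionine carrier Slc25a26 had log2 fold changes of 0.004, 0.085 and −0.088, all with overlap.

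Of the carriers whose substrate is less settled, 3 of 7 tested had a higher knockout mean. Slc25a46, an outer membrane protein of mitochondrial fission and lipid transfer, was at 64.4, 60.9 and 64.9 CPM in wild type and 68.9, 72.6 and 66.7 in knockout. The groups did not overlap, with a log2 fold change of 0.13 ± 0.066 (SE; edgeR's adjusted p = 0.603). Slc25a45 was at 29.5, 30.3 and 30.8 CPM in wild type and 24.0, 29.4 and 26.8 in knockout. The wild-type libraries were tight, and knockout library 1 lay just under them. The log2 fold change was −0.18 ± 0.089 (SE; edgeR's adjusted p = 0.603). Slc25a34, Slc25a35, Slc25a47, Slc25a48 and Slc25a53 overlapped between groups, with log2 fold changes from −0.24 to 0.090. Slc25a47, which is known from liver, was at 0.727 ± 0.17 FPKM in wild type. Slc25a43 had 34 fragments in all and was not tested.

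**Figure D3:**
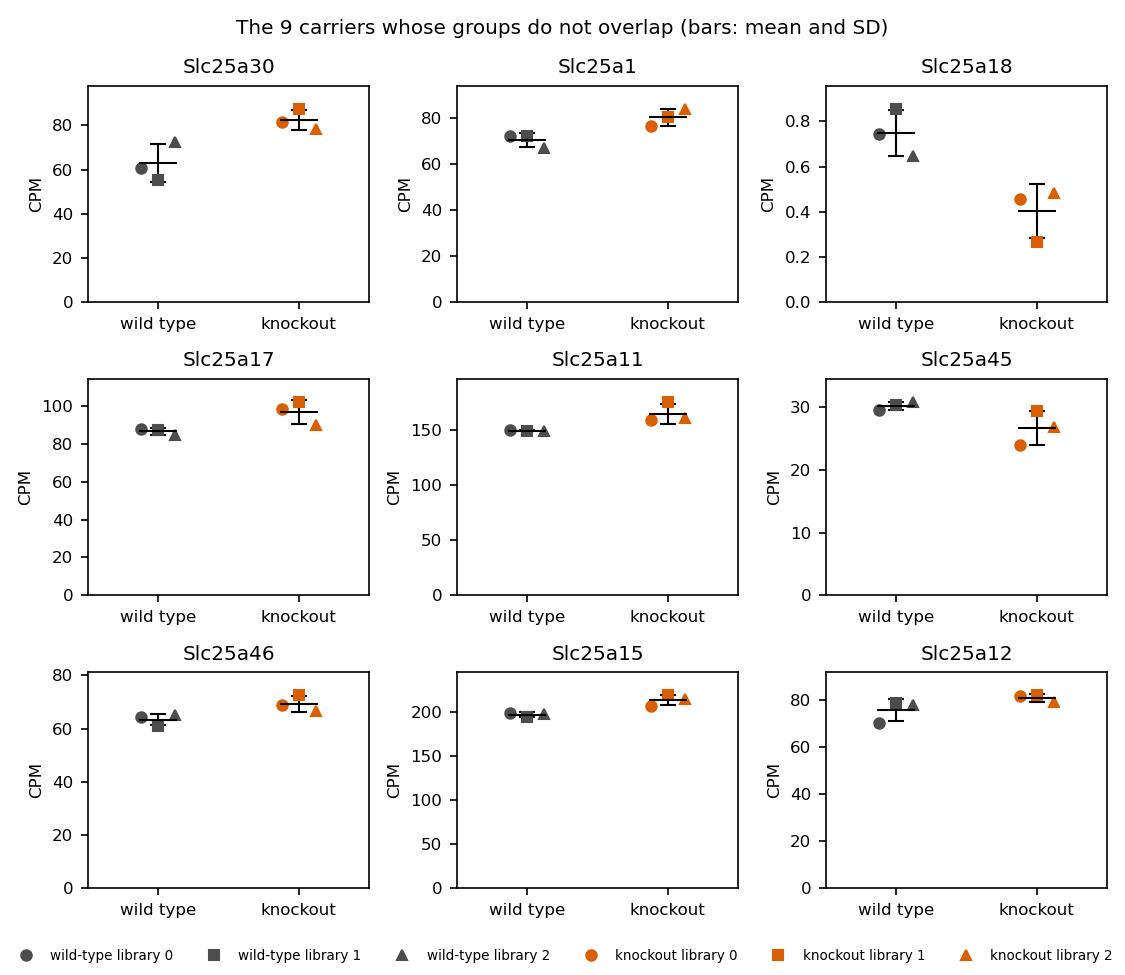
CPM in each library, with the mean and SD of each group (n = 3), for the 9 carriers whose groups do not overlap; the vertical axes start at 0. Slc25a30 (62.9 and 82.4 CPM in mean) and the sparse Slc25a18 (0.749 and 0.402 CPM) show the widest relative gaps.

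Within 8 pairs of related carriers, the share of the first gene in the pair's summed FPKM was compared by an exact two-sided permutation test, in which 3 against 3 cannot go below p = 0.1. No pair could pass, and with adjustment over 8 pairs the smallest adjusted p was 0.267. The share of Slc25a22 among the glutamate carriers was 87.5%, 88.4% and 89.2% in wild type and 92.9%, 95.8% and 92.0% in knockout, without overlap (exact p = 0.1). That share rests on 4 to 18 fragments of Slc25a18 per library, and the difference of 5.22 percentage points was 2.78 with fragment counts in place of FPKM. The share of Slc25a40 beside its abundant relative Slc25a39 was 2.13%, 2.22% and 2.16% in wild type and 1.73%, 1.64% and 1.99% in knockout (exact p = 0.1). The share of Slc25a30 over Slc25a14 had a wild-type mean of 92.5% ± 1.26 and a knockout mean of 94.6% ± 0.87 (SD, n = 3; exact p = 0.1), with the closest libraries at 93.5% and 93.6%.

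In the other 5 pairs the groups overlapped (exact p = 0.3 to 0.8). Slc25a4 made up 19.7% ± 0.54 of the ADP/ATP carriers in wild type and 19.2% ± 0.098 in knockout, a difference of −0.46 percentage points. Aralar (Slc25a12) made up 31.4% ± 1.07 and 31.8% ± 0.64 of the aspartate/glutamate carriers, and mitoferrin-1 (Slc25a37) 31.6% ± 1.0 and 29.6% ± 2.09 of the mitoferrins. Slc25a33 made up 9.16% ± 1.5 and 8.08% ± 0.74 of the pyrimidine nucleotide carriers. Slc25a25 ranged from 63.1% to 76.0% of its pair with Slc25a23 in wild type and from 74.1% to 76.3% in knockout. The coding sequences of the paired genes were 64.8% to 78.6% identical, with the ADP/ATP carriers the most alike.

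**Figure D4:**
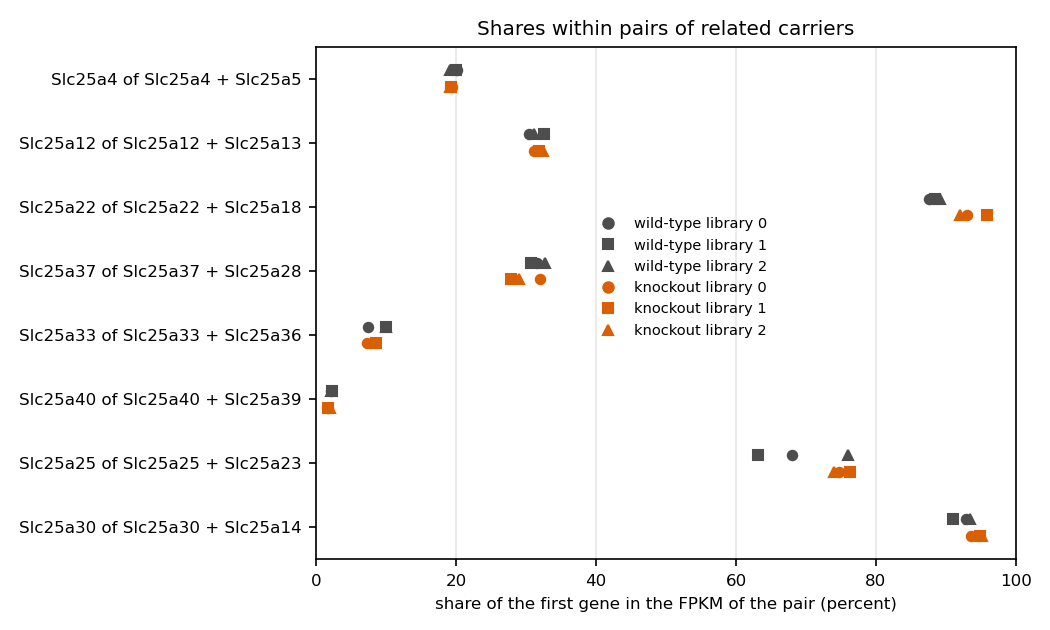
Share of the first gene in the summed FPKM of each of 8 pairs (percent, from 0 to 100), one point per library. Slc25a22 and Slc25a18 show the clearest shift between groups, from 88.4% to 93.6% in mean, and Slc25a25 and Slc25a23 the widest spread among wild-type libraries.

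Genes that work with the carriers were read from lists of related mitochondrial genes, none of which had a member past edgeR's adjusted threshold. All 20 listed nuclear genes of oxidative phosphorylation had a higher knockout mean, against 48.3% of all genes, with a median log2 fold change of 0.14. They are only a part of the nuclear genes of oxidative phosphorylation, picked by hand with earlier results of these data known. Of these 20, 13 did not overlap between groups, all higher in knockout (7.12% of all genes), and 6 had an unadjusted p under 0.05, all higher (3.17% of all genes). Ndufb8 and Ndufs1 of complex I and Uqcrc1 of complex III had log2 fold changes of 0.23 ± 0.082, 0.16 ± 0.065 and 0.16 ± 0.065 (SE). Of 15 other channels and carriers, 13 had a higher mean, with a median of 0.072. Mpc1, a subunit of the pyruvate carrier, stood at 0.23 ± 0.097, the outer membrane protein Tspo at 0.24 ± 0.10 and the channel Vdac3 at 0.13 ± 0.061. Of 14 import genes 11 had a higher mean (median 0.079), with Tomm5 and Timm8b at 0.23 ± 0.091 and 0.19 ± 0.079 and Timm10b at −0.19 ± 0.089.

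Shuttle enzymes were mixed. Of 10 enzymes of the malate-aspartate and citrate shuttles 6 had a higher mean (median 0.035). Mdh1, the cytosolic malate dehydrogenase that works across the membrane from Slc25a11, was at 1229, 1099 and 1174 CPM in wild type and 1339, 1443 and 1343 in knockout. The groups did not overlap, and the log2 fold change was 0.24 ± 0.079 (SE; edgeR's adjusted p = 0.599). Gpd1 was at 0.099 ± 0.064 and Me1 at 0.14 ± 0.13 on the same scale. All 6 carnitine shuttle genes had a higher mean (48.3% of all genes), with a median of 0.070 and a lowest value of 0.004. In each of them the groups overlapped. The peroxisomal octanoyltransferase Crot was the highest at 0.33 ± 0.13, with Cpt1b at 0.21 ± 0.13 and Crat at 0.094 ± 0.066. Of 8 ornithine and glutamate enzymes 3 had a higher mean (median −0.0075), with Oat, Glul and Glud1 at 0.17, −0.24 and 0.15. Of 10 regulators of mitochondrial biogenesis 6 had a higher mean (median 0.060), with Ppargc1b at −0.24 ± 0.14, Gabpa at 0.10 ± 0.067 and Ppara at 0.12 ± 0.11. Among 4 tested relatives outside the name rule, Mtch2 of the outer membrane was at 0.18 ± 0.067 and Mtch1 at 0.035 ± 0.076. Ucp1 was at 21.1 CPM in knockout library 2, the library high in fat genes, and from 0.379 to 4.02 CPM in the other 5.

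**Figure D5:**
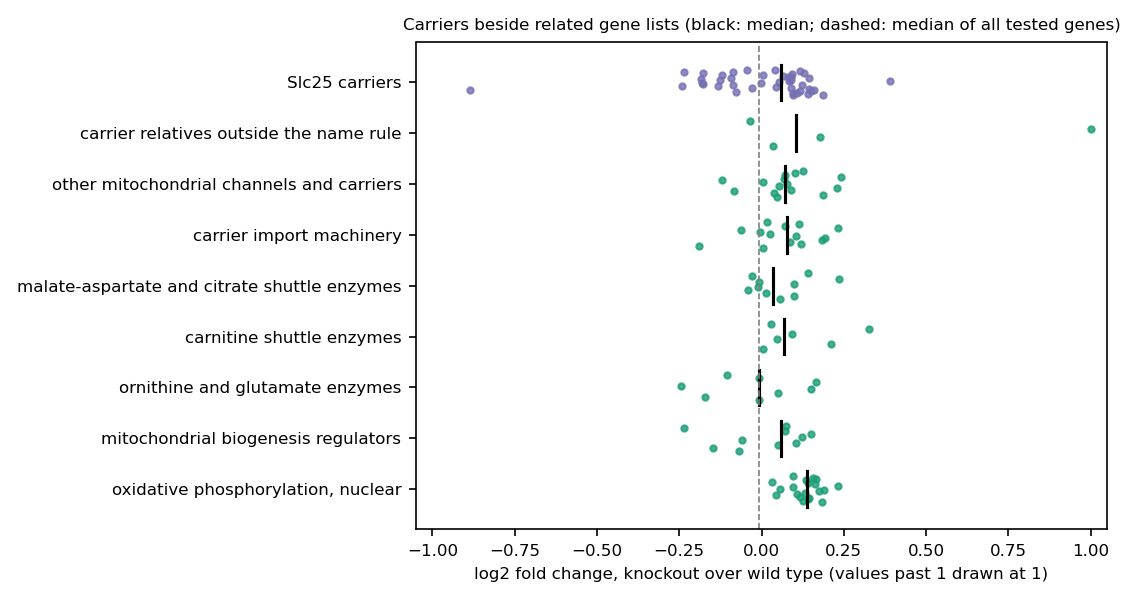
Log2 fold change (knockout over wild type) for the tested carriers (purple) and the genes of 8 related lists (green), with the median of each list (black bar) and of all tested genes (dashed line). The medians lie at 0.058 for the carriers and 0.14 for oxidative phosphorylation; Ucp1, at 1.91, is drawn at 1.

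The carriers varied little between mice of a group, with a median within-group SD of 0.118 on the log2 scale, but the libraries did not deviate evenly. Wild-type library 0 was the lowest of the 6 in 13 of 42 carriers and the highest in 1, whereas it was lowest in 13.4% and highest in 17.1% of all tested genes. Knockout library 1 was the highest in 13 carriers and the lowest in 4, against 20.9% and 22.0% of all genes. Wild-type library 1 was the highest in nearly as many, 12, and the lowest in 8, against 21.1% and 23.0% of all genes. The single carrier highest in wild-type library 0 was Slc25a24.

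The 47 carriers lie on 19 chromosomes, and few are neighbours. Slc25a29 and Slc25a47 stand head to head on chromosome 12 with 162 bases between them (GRCm38), and Slc25a41 lies 2056 bases from Slc25a23 on chromosome 17. Slc25a54 lies 6461 bases before Slc25a24 on chromosome 3, and Slc25a43 18448 bases before Slc25a5 on the X chromosome. The last 3 of these pairs join a gene with few or no fragments to one that was tested. Coding length was short and narrow in range, with a median of 954 bases over the 47 carriers (quartiles 918 and 1018.5) against 1422 over the other tested genes. The longest were the aspartate/glutamate carriers Slc25a12 (2031 bases) and Slc25a13 (2028 bases), which carry a regulatory domain before the carrier domain. Exons of 12 carriers overlap a gene on the opposite strand, among them Slc25a11 (Rnf167), Slc25a23 (Gm17168) and Slc25a46 (B930094E09Rik). Slc25a5, Slc25a36, Slc25a37 and Slc25a40 have near-identical copies elsewhere (at least 95% identity over 200 bases), so their counts are less certain.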

How the data were processed

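Per the labels' protocols, 6 kidneys gave stranded total RNA libraries depleted of ribosomal RNA. Cuffdiff, Cufflinks 2.2.1, TopHat2 2.0.13 and cutadapt 1.2.1 are listed with mm10 in the submitters' processing notes, beside SAMtools 1.2 and Bowtie2 2.2.3. How multiple alignments, strand and gene models were handled is not given in the sources used here. Per the file headers, the authors deposited estimated counts of fragments and FPKM per library, and a comparison table with a log2 fold change, a p-value and a q-value per gene.

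After rounding to whole numbers, a filterByExpr filter and TMM scaling, the 2 groups were compared in edgeR 4.0.16 (R 4.3.3) by a two-sided quasi-likelihood F test without covariates. P-values were adjusted by Benjamini-Hochberg over 14354 genes. The fit was tested on simulated data. Depth of 15261362 to 20631158 fragments leaves counting error small for abundant carriers and large for those with few fragments. The mice are described as biological replicates.

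Alternatives were DESeq2 1.42.0, limma 3.58.1 (voom, log2(FPKM + 1) or log2(FPKM + 0.1)), upper-quartile or RLE scaling, a minimum of 1 CPM in 3 libraries or no filter, fragment counts in the pair shares, and each library left out. Gene models came from GENCODE. Members, lists and motifs were chosen with earlier results of these data known. Named carriers were the 10 highest by FPKM, up to 12 with the smallest p, those without overlap, the highest of each role, members of the 8 pairs and the untested. Each list gives up to 3 genes by p. Other names were chosen after their values were seen. Protein features planned for the carriers were not analysed here, and coding length and identity stand in their place. Results for some single genes, counted in the totals, are left unreported.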

Additional observations from a re-analysis of the deposited data

How the results depend on the processing

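No carrier passed the adjusted threshold under any of the 14 alternatives. Over all genes, 0 passed edgeR's quasi-likelihood test (1193 at an unadjusted p under 0.05), against 1 with no filter, 13 by DESeq2 and 0 to 1 with a library left out. Carriers with an unadjusted p under 0.05 numbered 6 (8.31% of all genes), against 3 by DESeq2 (5.59% of all genes). RLE scaling also gave 6 (8.38% of all genes). Upper-quartile scaling, no filter, the minimum of 1 CPM, limma-voom and both log2 FPKM settings gave 4 each, against 7.55% to 8.33% of all genes. With a library left out, carriers at this threshold numbered 3 to 5 of 42 or 43 tested. Without wild-type library 0, 1 or 2 they were 4, 5 and 3, against 11.17%, 6.16% and 7.54% of all genes. Without knockout library 0, 1 or 2 they were 3, 3 and 4, against 8.75%, 3.53% and 7.08%. Carriers without overlap numbered 9, and 11 to 16 with a library left out, when 19.4% to 29.6% of all genes did not overlap (16 each without wild-type library 0, wild-type library 1 or knockout library 2, and 14 without knockout library 0). With all libraries kept they numbered 8 or 9, but were not always the same. Slc25a45 overlapped under RLE scaling and Slc25a12 under upper-quartile scaling. On FPKM, Slc25a17 and Slc25a45 overlapped, whereas Slc25a39 and Slc25a40 did not. The median log2 fold change of the carriers ran from 0.030 to 0.094 with a library left out.

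Of 377 alternative values of 27 named carriers, 362 kept their direction and 15, in 6 carriers, turned. Slc25a28 (−0.0014) turned to 0.0032 with RLE, 0.0023 with no filter, 0.0033 by DESeq2, 0.0016 by limma-voom, 0.031 and 0.033 on log2 FPKM with pseudocounts of 1 and 0.1, and between −0.061 and 0.039 with a library left out (0.039, 0.023 and 0.030 without wild-type library 1, wild-type library 2 or knockout library 0). With a library left out, Slc25a14 ran from −0.21 to 0.055, Slc25a22 from −0.022 to 0.15, Slc25a25 from −0.045 to 0.49 (−0.0092 without wild-type library 1), Slc25a33 from −0.27 to 0.080 and Slc25a51 from −0.13 to 0.034. The difference in aralar share, 0.35 percentage points, turned to −0.15 with fragment counts and ran from −0.12 (without wild-type library 0) to 0.93 with a library left out. The difference in Slc25a22 share, 5.22 percentage points, was 2.78 with fragment counts. The cause was not tested.

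No paired analysis was possible because the library numbers match no mouse label and the labels carry no replicate numbers. Depth limits Slc25a18, Slc25a53 and Slc25a47, which had 64, 83 and 130 fragments over all libraries and the widest intervals with Slc25a29.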
